A study of Mus musculus with 10 samples.

Results

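The enzymes and carriers that take glucose from the blood to pyruvate, and pyruvate to lactate or into the mitochondrion, were measured in mouse tongue after treatment with SP2509, an inhibitor of the histone demethylase LSD1 (gene Kdm1a). The list holds 38 genes, chosen by symbol and not by their values: 3 glucose transporters, 3 hexokinases, 7 genes of upper glycolysis, 4 of the enzymes that make and break fructose 2,6-bisphosphate, 9 of lower glycolysis, 4 of lactate handling and 8 of the pyruvate dehydrogenase complex and its switches. All 38 were among the 27151 genes of the table. Of these, 37 passed the filter on low values (at least 10 normalised reads in at least 4 libraries) as did 17088 genes of the whole table, and Hkdc1, with 0 to 9.27 normalised reads, did not.

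All mice were C57BL/6J, and all had been exposed to 4NQO (4-nitroquinoline 1-oxide), a carcinogen that induces lesions of the oral epithelium, so both groups carry that exposure. Whole tongue RNA was sequenced from 4 libraries of vehicle-treated mice and from 6 libraries of SP2509-treated mice, whose titles read SP2509h. There was no group without 4NQO, and the labels name no age, sex, dose or timing and do not say whether a tongue held a tumour. Nor do they tie each library to a separate animal, so every p-value below reflects the variation among these 10 libraries, part of which may be technical.

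Glycolysis splits glucose into pyruvate in the cytosol. Its pace is set largely at hexokinase and at phosphofructokinase, and the latter is switched on by fructose 2,6-bisphosphate, which the bifunctional Pfkfb enzymes make and remove. Lactate dehydrogenase turns pyruvate into lactate, which leaves through the monocarboxylate carriers, whereas the pyruvate dehydrogenase complex sends it into the citric acid cycle and is shut by its kinases and reopened by its phosphatase. Skeletal muscle, the bulk of the tongue, uses isoforms of its own at many steps. The genes called general below are all other members of the list, and they were not selected for expression in the overlying squamous epithelium. The transcription factor HIF-1 is a well known activator of many glycolytic genes.

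Values are normalised reads, that is, reads per gene divided by 1 size factor for each library. Depth was 9180844 to 14768955 reads in vehicle and 15748571 to 19375555 in SP2509, and mitochondrial genes took 35.3% to 52.1% of reads in vehicle and 24.0% to 32.2% in SP2509. Between SP2509 replicates 1 and 2, and 4 and 5, the variance was 3.48 and 3.72 times the Poisson variance among genes of 1000 to 5000 reads. In all other pairs within a group it was 11.1 to 163 times. Among genes of 10 to 50 reads it was 2.42 and 3.52 times, against 2.61 to 6.97 times, so replicates 4 and 5 did not stand apart there. Each close pair was averaged to 1 unit, which leaves 4 SP2509 units in every mean ± SD, and the adjusted p of each called member is printed with that of a fit on these 4 units and 4 vehicle libraries ("pairs merged"). In the merged limma fit no gene of any kind passed an adjusted p of 0.05, the lowest being 0.0718, while 1980 were higher and 1652 lower at an unadjusted p under 0.05. DESeq2 on the summed reads of each pair called 862 genes higher and 814 lower.

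Libraries also differed in the levels of cell type markers. Of 20 skeletal muscle contractile markers 19 were tested, and none was called by limma or edgeR. By limma 8 were higher at an unadjusted p under 0.05. DESeq2 called 5 higher and gave Myh7 no adjusted p. Summed over the 20 markers, vehicle libraries held 238106 to 485912 normalised reads, with vehicle replicate 1 lowest. SP2509 replicates 1 to 5 held 392099 to 480569, and SP2509 replicate 6 held 1091213. The 15 keratinocyte markers (1 higher and none lower by limma, 5 higher at an unadjusted p under 0.05, 2 higher by edgeR and 7 by DESeq2) summed to 107221 to 144032 in vehicle, 178899 to 362673 in SP2509 replicates 1 to 5, and 74881 in SP2509 replicate 6. The 12 lingual gland markers summed to 96.4 to 628 in vehicle. In SP2509 they summed to 208 to 267 in replicates 1 to 3, inside the vehicle range. Replicates 4 and 5 held 401594 and 414325, and replicate 6 held 7748. Of the 6 tested, limma called 1 higher, edgeR none and DESeq2 6 higher. Dcpp1, a defining marker, was at 0 in every vehicle library. The 10 leukocyte markers summed to 1682 to 2959 in vehicle and to 3450.0 to 9861 in SP2509, with no overlap. Their mean log2(normalised reads + 1) did overlap, at 6.07 to 7.14 in vehicle and 6.68 to 7.26 in SP2509. None of the 9 tested was called by limma or edgeR (3 higher and 1 lower at an unadjusted p under 0.05, 2 higher and 1 lower by DESeq2). The 6 adipocyte markers summed to 7278 to 11299 in vehicle and 9883 to 22718 in SP2509 and overlapped. What part the leukocyte, adipocyte and gland markers played in the values below was not tested. For limma on all 10 libraries, the share of all genes at an unadjusted p under 0.05 is not given here. In bulk tissue, fewer cells of a type and less RNA per cell cannot be told apart, and this applies to every value below. Transcript length went along with the fold changes too, with a median of 0.19 in the shortest of 5 bins of genes and -0.05 in the longest. The results below are therefore given, where it matters, with a muscle or keratinocyte covariate, or corrected for exon length. Each covariate is the mean of log2(normalised reads + 1) over the listed markers of that type in a library, and not their sum.

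Of the 37 tested genes, 6 rose in SP2509 (Tpi1, Pgk1, Pgam1, Eno1, Ldha and Slc16a1) and 2 fell (Pfkfb4 and Pfkfb2) at an adjusted p under 0.05 (limma, two-sided, Benjamini-Hochberg over 17088 genes). Among all 17088 genes 4.95% were called higher and 4.15% lower. The other 29 did not pass. The fold change was positive for 26 and negative for 11, with a median log2 fold change of 0.27 (range -1.06 to 1.55), where the median of all tested genes was 0.02. In 5 genes every SP2509 library lay above every vehicle library (Tpi1, Pgk1, Eno1, Ldha and Pdha1), as in 6.54% of all genes, and in 2 every one lay below (Pfkfb4 and Eno2), as in 5.11%. With the pairs merged, 8 members were higher and 3 lower at an unadjusted p under 0.05, where 11.6% and 9.67% of all genes were.

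With the muscle covariate, 7 members were higher and 4 lower, beside 7.95% and 5.17% of all genes. The 8 calls remained, and Pfkl (higher), Pfkfb1 and Eno2 (both lower) joined them. With the keratinocyte covariate 17 members were higher and 1 lower, beside 10% and 6.89% of all genes. Pfkfb2 then lost its call, and Hk2, Gpi1, Aldoa, Eno3, Pkm, Ldhb, Slc16a3, Pdha1, Pdhb, Dlat and Pdk2 joined the higher genes. On whole reads edgeR called 6 higher and 1 lower, without Pfkfb2 (5.3% and 3.38% of all genes), and DESeq2 called 6 and 3, with Eno2 and without a p-value for Pdha1 (10.1% and 8.64%).

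Single libraries moved these counts. Leaving out SP2509 replicate 6 kept the 8 calls and added 6 (Pfkl, Aldoc and Pdha1 higher, Pfkm, Pfkfb1 and Eno2 lower), where 11.5% and 8.71% of all genes were called higher and lower. Leaving out vehicle replicate 1 kept 3 (Pgk1, Ldha and Pfkfb4), beside 1% and 0.626% of all genes. Leaving out both of SP2509 replicates 4 and 5, the libraries with the highest gland marker sums, kept 2 (Pgk1 and Slc16a1), beside 1.28% and 0.913% of all genes.

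**Figure D1:**
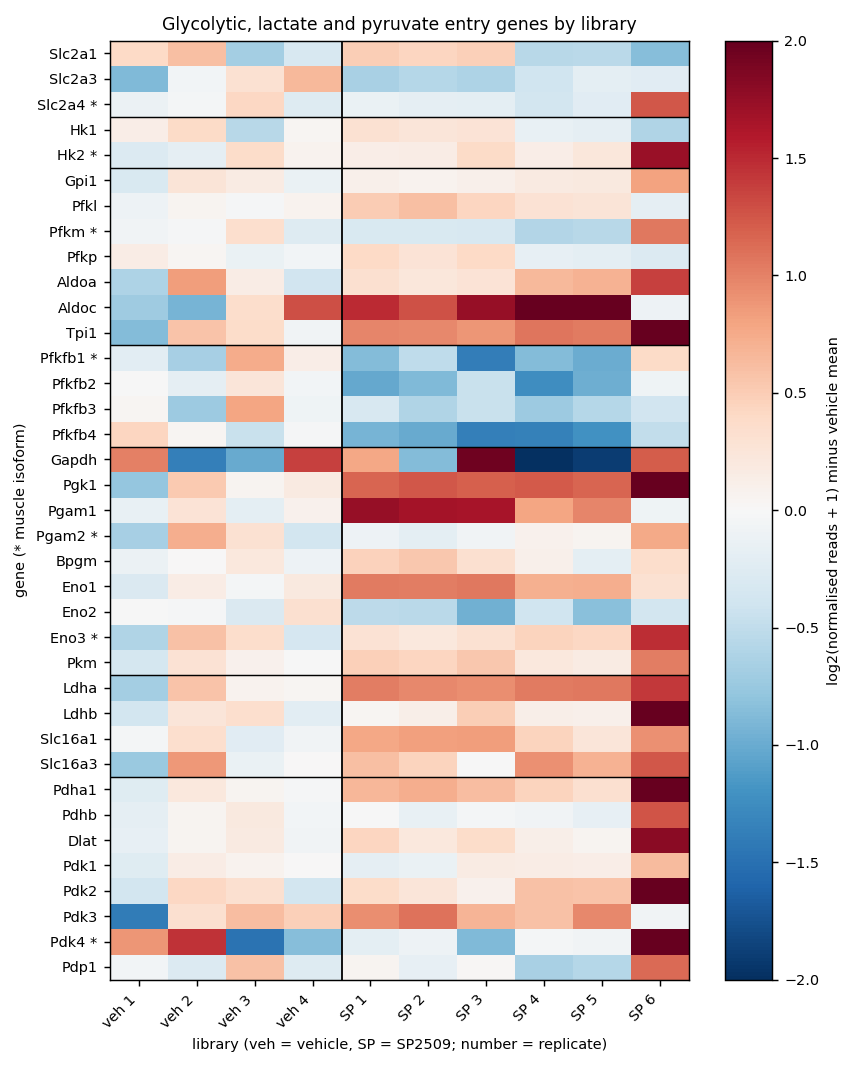
Each row is a tested gene, ordered by role and separated by lines, and each column a library (veh, vehicle; SP, SP2509). Colour gives log2(normalised reads + 1) minus the mean of the 4 vehicle libraries, red above and blue below, ending at 2 in each direction, and an asterisk marks a muscle isoform. The column of SP2509 replicate 6 is the reddest, with the highest value of all 10 libraries for 21 of 37 genes.

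**Figure D2:**
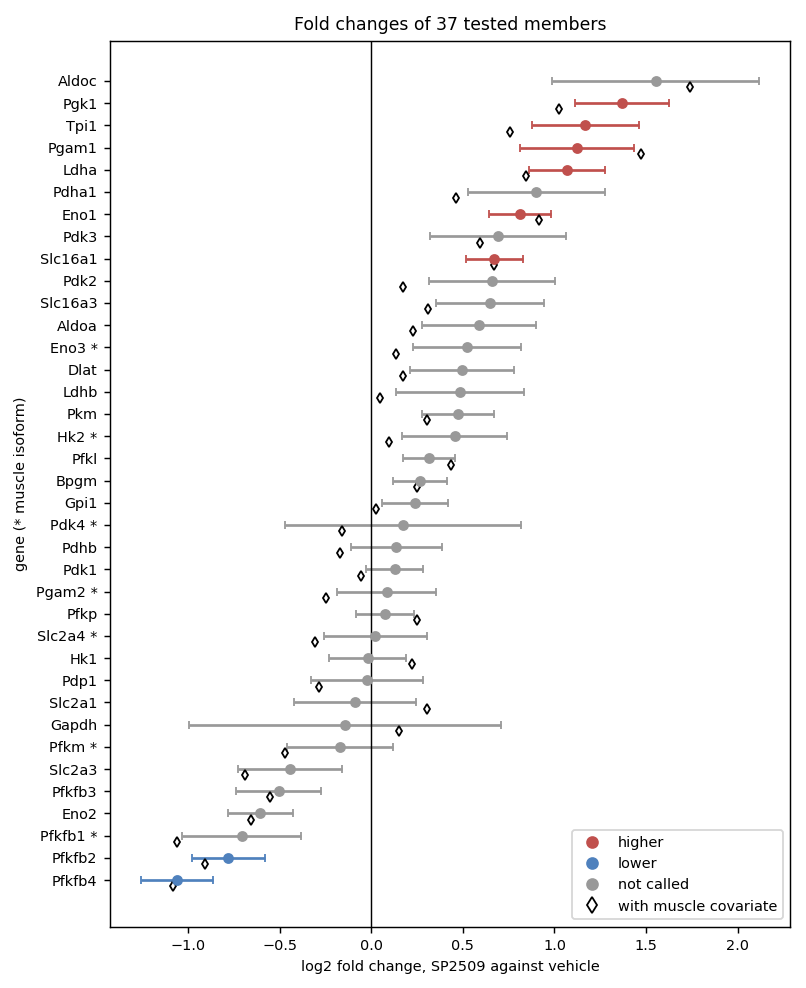
Log2 fold changes (horizontal axis, SP2509 against vehicle) of the 37 tested genes, with bars of ± 1 SE. Filled circles are the fit without covariate (red, higher; blue, lower; grey, not past the threshold), open diamonds the fit with the muscle covariate, and asterisks mark muscle isoforms. The diamonds lie left of the circles for all 7 muscle isoforms and also for most general genes, among them Tpi1, Pgk1 and Ldha. The diamonds lie right of the circles for Slc2a1, Hk1, Pfkl, Pfkp, Aldoc, Gapdh, Pgam1 and Eno1.

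The 6 higher genes all act from triosephosphate isomerase down to the lactate carrier, and the 2 lower genes both encode enzymes of fructose 2,6-bisphosphate. For 5 of these genes the 250 bases upstream of a start site (of Ldha, the first listed) are printed here, from RefSeq on GRCm38.p6, since they let the reader look for the core of the HIF-1 response element. The first 4 are higher members that hold it and the last is the member that fell most and does not. This display is a choice. The higher members Tpi1 and Eno1 hold it in no listed window, nor does the second window of Ldha, while the lower member Pfkfb2 holds it. Capitals mark ACGTG on either strand (its reverse complement is CACGT), and where the capitals read CACGTG the palindrome is also the E-box bound by MYC and related factors.
Pgk1 (chrX:106186850-106187099, + strand): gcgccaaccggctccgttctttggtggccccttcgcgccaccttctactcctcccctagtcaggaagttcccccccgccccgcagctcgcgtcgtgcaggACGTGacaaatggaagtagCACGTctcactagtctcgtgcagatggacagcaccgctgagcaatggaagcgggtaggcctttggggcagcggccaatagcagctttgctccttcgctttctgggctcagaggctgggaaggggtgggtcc
Ldha (chr7:46845554-46845803, + strand): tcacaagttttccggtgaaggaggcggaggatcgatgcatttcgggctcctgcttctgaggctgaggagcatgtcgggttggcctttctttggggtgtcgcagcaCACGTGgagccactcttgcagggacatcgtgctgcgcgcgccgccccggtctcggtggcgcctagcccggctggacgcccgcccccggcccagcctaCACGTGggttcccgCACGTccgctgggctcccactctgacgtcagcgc
Slc16a1 (chr3:104638414-104638663, + strand): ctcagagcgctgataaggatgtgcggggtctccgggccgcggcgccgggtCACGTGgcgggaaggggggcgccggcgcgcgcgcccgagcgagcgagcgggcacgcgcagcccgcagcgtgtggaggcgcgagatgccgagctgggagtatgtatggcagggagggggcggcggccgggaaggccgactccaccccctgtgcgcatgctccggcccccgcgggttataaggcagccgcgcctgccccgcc
Pgam1 (chr19:41911621-41911870, + strand): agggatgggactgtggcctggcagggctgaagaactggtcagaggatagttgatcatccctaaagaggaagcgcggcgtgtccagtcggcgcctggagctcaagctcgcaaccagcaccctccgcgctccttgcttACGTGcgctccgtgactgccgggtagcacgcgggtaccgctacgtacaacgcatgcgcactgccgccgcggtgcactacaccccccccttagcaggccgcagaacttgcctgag
Pfkfb4 (chr9:108991652-108991901, + strand): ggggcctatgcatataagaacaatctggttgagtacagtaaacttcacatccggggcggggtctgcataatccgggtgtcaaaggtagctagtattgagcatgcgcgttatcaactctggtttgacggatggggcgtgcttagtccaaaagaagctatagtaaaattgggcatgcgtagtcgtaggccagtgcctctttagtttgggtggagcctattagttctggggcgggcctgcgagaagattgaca

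ACGTG was found in the upstream 250 bases of 15 of the 35 members matched by symbol and in 19 of their 54 start-site windows (35.2%), against 16.6% of the 32851 windows in the RefSeq table. CACGTG, which contains it, was found in 6.02% of all windows. Among the 6 higher members 4 had ACGTG (Ldha, Pgam1, Pgk1 and Slc16a1), among the 2 lower members Pfkfb2 had it, and among the 26 matched members that were not called 10 had it. By window the share was 44.4% for the higher, 50% for the lower and 32.5% for the uncalled members. Ldha carries 3 runs, and Pgk1 and the uncalled Hk2 and Slc16a3 carry 2 each. A match is a string of letters and not a bound site, and binding was not measured.

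None of the glucose transporters was called in the fit without covariates. Slc2a1 (GLUT1), the general transporter, measured 1962 ± 775 (SD, n = 4) in vehicle and 1847 ± 824 (SD, n = 4) in SP2509, with a log2 fold change of -0.09 ± 0.33 (SE) and an adjusted p of 0.89. Slc2a3 (GLUT3), a high-affinity transporter known from neurons and leukocytes, was low, at 63.7 ± 26.2 against 43.9 ± 6.37 normalised reads (log2 fold change -0.44 ± 0.28 (SE), adjusted p = 0.328). Its adjusted p was 0.0484 with vehicle replicate 1 and SP2509 replicate 6 both left out and 0.0257 to 0.661 over all alternatives, the lowest with library weights. Slc2a4 (GLUT4), the insulin-responsive transporter of muscle and fat, measured 2186, 2305, 3141 and 1970.0 in the 4 vehicle libraries and 2158, 2079.5, 2064, 1834, 2009 and 5583 in the 6 SP2509 libraries. Only the last of these, SP2509 replicate 6, stood out, and the log2 fold change was 0.02 ± 0.28 (SE) with an adjusted p of 0.971. None of these 3 genes had an unadjusted p under 0.05 by limma, and neither edgeR nor DESeq2 called any.

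Hexokinases trap glucose in the cell by phosphorylation. Hk1, the widespread form, measured 1071 ± 268 (SD, n = 4) in vehicle and 1035 ± 280.0 (SD, n = 4) in SP2509, with a log2 fold change of -0.02 ± 0.21 (SE) (adjusted p = 0.968). Hk2, the form of muscle and of many tumours, measured 938, 997, 1464 and 1189 in vehicle and 1239, 1247, 1468, 1238, 1319 and 3737 in SP2509. Its values in SP2509 replicates 1 to 5 ran from 1238 to 1468, overlapping vehicle, and replicate 6 alone stood far above. The log2 fold change was 0.46 ± 0.29 (SE) (adjusted p = 0.321), and with the muscle covariate 0.10. Neither was called by limma, edgeR or DESeq2, and neither had an unadjusted p under 0.05 by limma.

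In upper glycolysis Tpi1 rose. It encodes triosephosphate isomerase, which makes both products of the split sugar usable, and lies at chr6:124810586-124814296 on GRCm38 (- strand). Normalised reads were 1361, 3684, 3187 and 2372 in vehicle replicates 1 to 4, and the lowest, median and highest of the 6 SP2509 libraries were 4571, 5016 and 10343. No SP2509 library reached down to the highest vehicle library, but the top value is again SP2509 replicate 6 and the bottom one vehicle replicate 1. Means were 2651 ± 1016 (SD, n = 4) in vehicle and 6243 ± 2744 (SD, n = 4) in SP2509, a log2 fold change of 1.17 ± 0.29 (SE), and the adjusted p was 0.0316, 0.0977 with the pairs merged and 0.00299 to 0.0977 over all 30 alternatives. Leaving out vehicle replicate 1 (0.0941), vehicle replicate 4 (0.0679) or any single one of SP2509 replicates 1 to 5 (0.0505 to 0.0556) ended the call. With the muscle covariate the log2 fold change was 0.76 (adjusted p = 0.0113).

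The rest of upper glycolysis did not pass. Gpi1, which turns glucose 6-phosphate into fructose 6-phosphate, had a log2 fold change of 0.24 ± 0.18 (SE) (adjusted p = 0.413). Of the phosphofructokinase subunits, Pfkl (the liver form) measured 511 ± 28.5 against 626 ± 128 with a log2 fold change of 0.32 ± 0.14 (SE), and its adjusted p was 0.166, 0.045 with the muscle covariate, 0.0132 without SP2509 replicate 6 and 0.01 to 0.574 over all alternatives. Pfkp (the platelet form) had a log2 fold change of 0.07 ± 0.16 (SE) (adjusted p = 0.799). Its row is uncertain, because its annotated exons overlap those of Pitrm1, whose reads come to 32.4% to 76.9% of it.

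Pfkm, the muscle subunit, measured 10608, 10930.3, 14056 and 9301 in vehicle and 9002, 8989, 8852, 7403, 7521 and 23029 in SP2509. SP2509 replicates 1 to 5 all lay below every vehicle library and SP2509 replicate 6 lay far above all of them. Over all 10 libraries the log2 fold change was -0.17 ± 0.29 (SE) with an adjusted p of 0.744. Without SP2509 replicate 6 it was -0.42 (adjusted p = 0.0437, range over all alternatives 0.0437 to 0.966), so that 1 library decides whether Pfkm is called.

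Aldolase splits the doubly phosphorylated sugar. Aldoa was the most abundant transcript of the list per kilobase of exon, at 12419 normalised reads per kilobase in vehicle and 18951 in SP2509, and its log2 fold change was 0.59 ± 0.31 (SE) (adjusted p = 0.236). A neighbouring locus that shares the symbol held only 13.1 to 32.2 normalised reads and is not part of that value. Aldoc, the form best known from brain, had the largest fold change of the list and did not pass, at 1.55 ± 0.57 (SE) on the log2 scale (adjusted p = 0.099). Its values were 5.56, 4.61, 12.7 and 25.1 in vehicle, and 8.95, 32.0 and 66.2 were the lowest, median and highest in SP2509, from 43 and 272 whole reads per group. The groups overlapped. Without SP2509 replicate 6 its adjusted p was 0.0183, in a range of 0.0183 to 0.29 over all alternatives.

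All 4 enzymes of fructose 2,6-bisphosphate had negative fold changes, with a median of -0.74 on the log2 scale, and 2 of them fell. Pfkfb4 (chr9:108991778-109032228, + strand), an isoform known from testis, hypoxic cells and tumours, measured 1296, 995, 707 and 953 in vehicle, and its lowest, median and highest SP2509 values were 374, 448 and 689. Every SP2509 library lay below every vehicle library, the closest being 689 against 707. Means were 988 ± 242 (SD, n = 4) in vehicle and 488 ± 144 (SD, n = 4) in SP2509, with a log2 fold change of -1.06 ± 0.20 (SE). The adjusted p was 0.0134, 0.0734 with the pairs merged and 6.13e-05 to 0.0765 over all alternatives, and the call stood when any single library was left out (0.00123 to 0.049). With the muscle covariate the log2 fold change was -1.08 and with the keratinocyte covariate -0.90.

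Pfkfb2 (chr1:130689182-130729253, - strand), the heart isoform that insulin signalling activates, measured 855, 762, 1021 and 828.8 in vehicle and 363, 452 and 807 as the lowest, median and highest in SP2509. Only the top SP2509 library reached into the vehicle range. The log2 fold change was -0.78 ± 0.20 (SE), and the adjusted p was 0.0351, 0.136 with the pairs merged, 0.0644 with the keratinocyte covariate, 0.0506 by edgeR and 0.00178 to 0.161 over all alternatives. The call was lost when any single library other than SP2509 replicate 3 or 6 was left out (0.0534 to 0.0941). A near copy annotated as Gm29427 shares part of this sequence and holds 1.06% to 3.42% as many reads.

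Pfkfb1, the isoform of liver and muscle, measured 560.3 ± 235 against 372 ± 215, with a log2 fold change of -0.71 ± 0.32 (SE) and an adjusted p of 0.176. That p was 0.0317 with the muscle covariate and 0.0282 without SP2509 replicate 6, in a range of 0.0139 to 0.578 over all alternatives. Pfkfb3, the inducible isoform with the strongest kinase activity, measured 302 ± 132 against 202 ± 15.5 (log2 fold change -0.51 ± 0.23 (SE), adjusted p = 0.173). Leaving out vehicle replicate 2 brought the adjusted p of Pfkfb3 to 0.0463, in a range of 0.0463 to 0.435 over all alternatives.

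**Figure D3:**
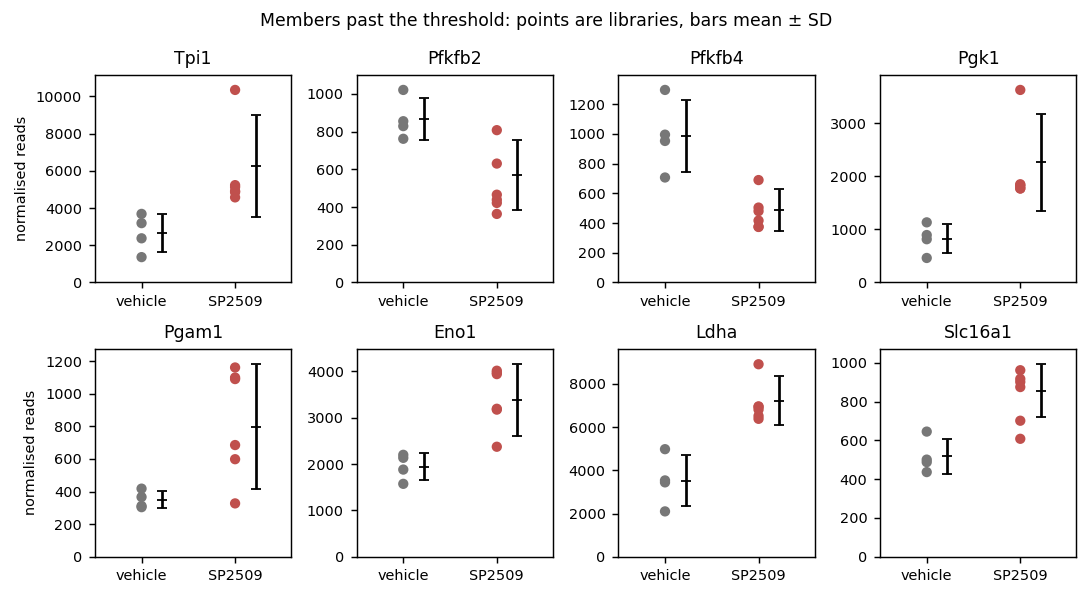
Normalised reads on the vertical axis (starting at 0) of the 8 genes past the threshold, in 4 vehicle and 6 SP2509 libraries. Points are libraries, and the dash with bars is the mean ± SD over 4 vehicle libraries or 4 SP2509 units. In Pgk1, Ldha, Eno1 and Tpi1 every SP2509 point lay above every vehicle point, and in Pfkfb4 every SP2509 point lay below.

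Lower glycolysis had a median log2 fold change of 0.47 over 9 genes, of which Pgk1, Pgam1 and Eno1 rose. Pgk1 (chrX:106187100-106203699, + strand) encodes phosphoglycerate kinase, the first step of glycolysis that yields ATP. Its values were 462, 1133, 815 and 894 in vehicle and 1772, 1852, 1810.4, 1837, 1772 and 3629.9 in SP2509 replicates 1 to 6. All 6 stood above all 4, with replicates 1 to 5 close together and replicate 6 well above them. Means were 826 ± 278 (SD, n = 4) in vehicle and 2264 ± 911 (SD, n = 4) in SP2509, the log2 fold change was 1.37 ± 0.26 (SE), and the adjusted p was 0.0136, 0.0718 with the pairs merged and 7.66e-05 to 0.0718 over all alternatives. The call stood without any single library (0.00329 to 0.0446), and with the muscle covariate the log2 fold change was 1.03 (adjusted p = 0.0065).

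Pgam1 (chr19:41911923-41918660, + strand), the general phosphoglycerate mutase, measured 312, 418, 304 and 366 in vehicle and 1160.4, 1099, 1089, 598, 685 and 327 in SP2509 replicates 1 to 6. Replicates 1 to 3 were highest, 4 and 5 intermediate, and replicate 6 lay inside the vehicle range. The log2 fold change was 1.12 ± 0.31 (SE), and the adjusted p was 0.044, 0.138 with the pairs merged, 0.0585 with the length correction and 0.00137 to 0.138 over all alternatives. Leaving out any single library but SP2509 replicate 6 ended the call (0.0629 to 0.124), and leaving out SP2509 replicate 6 gave 0.00214. The call was also lost with scaling to reads outside mitochondrial genes, with quantile normalization, without the filter and by limma without trend. With the muscle covariate the log2 fold change was 1.47, and with the keratinocyte covariate 0.55.

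Eno1 (chr4:150236721-150248879, + strand), the general enolase, measured 1574, 2136, 1882 and 2201 in vehicle and 2375, 3569 and 4016 as the lowest, median and highest in SP2509. The groups did not overlap, and the lowest SP2509 library, replicate 6, stood just above the highest vehicle library. Means were 1948 ± 285 (SD, n = 4) in vehicle and 3384 ± 772 (SD, n = 4) in SP2509, the log2 fold change was 0.81 ± 0.17 (SE), and the adjusted p was 0.0183, 0.0839 with the pairs merged and 0.000154 to 0.0839 over all alternatives. Among single libraries, leaving out vehicle replicate 1 ended the call (0.0673). Leaving out SP2509 replicates 4 and 5 together (0.0555) ended it as well, and so did scaling to reads outside mitochondrial genes. With the muscle covariate the log2 fold change was 0.92 and with the keratinocyte covariate 0.58. Eno1 has 3 near copies in the table, together 0.751% to 2.69% of its reads.

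Eno2, the neuronal enolase, went the other way without passing. It measured 150.2, 147, 122 and 189 in vehicle and 104, 103, 76.8, 114, 83.6 and 116 in SP2509, each SP2509 library below each vehicle library, with a log2 fold change of -0.61 ± 0.18 (SE). The adjusted p was 0.0537, 0.0462 with the muscle covariate, 0.0247 without SP2509 replicate 6 and 0.0102 to 0.137 over all alternatives. The 6 Schwann cell markers, which mark peripheral nerve, summed to 9361 to 19292 in vehicle and to 5257 to 11561 in SP2509. Their median log2 fold change was -0.70. Limma and edgeR each called 1 lower and DESeq2 3, with 4 lower at an unadjusted p under 0.05 by limma and none higher by any of these. Their part in the Eno2 values was not tested.

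Gapdh, often used as a loading reference, varied widely between libraries. It measured 4886, 932, 1198 and 6265 in vehicle and 4129, 1331, 9325, 598, 648 and 5570.2 in SP2509. High and low libraries occurred in both groups, and the log2 fold change was -0.14 ± 0.85 (SE) with an adjusted p of 0.934. SP2509 replicates 1 and 2, otherwise a close pair, differed by 4129 against 1331. Annotated transcripts hold 77 near copies of Gapdh (at least 95% identity over at least 300 bases), of which 61 have a row in the table. Their summed rows held 541 to 1337 normalised reads, which is 8.27% to 163% of the Gapdh row in the same library, so the Gapdh row is uncertain, and it enters the counts and medians above as 1 negative fold change.

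**Figure D4:**
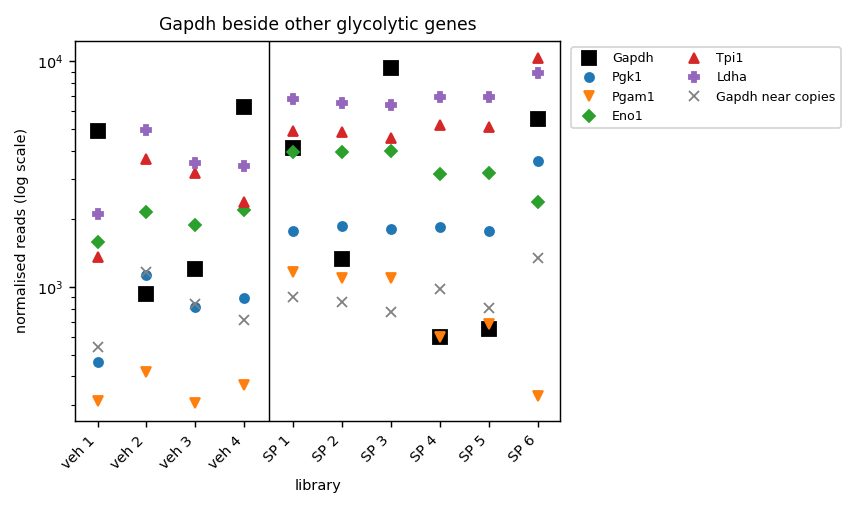
Normalised reads (vertical log axis) of Gapdh, of 5 other genes of the list and of the sum of the rows that are near copies of Gapdh, in each of the 10 libraries on the horizontal axis. Gapdh spans 598 to 9325 with no order by group, while the near copies stay between 541 and 1337.

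The last steps of lower glycolysis did not pass. Pkm, pyruvate kinase, measured 9662 ± 1729 (SD, n = 4) in vehicle and 14272 ± 3593 (SD, n = 4) in SP2509, a log2 fold change of 0.47 ± 0.20 (SE) (adjusted p = 0.142). Bpgm, which makes the 2,3-bisphosphoglycerate of red cells, had a log2 fold change of 0.27 ± 0.15 (SE) (adjusted p = 0.252), and the 7 erythrocyte markers summed to 9199 to 28850 in vehicle and 15496 to 26504 in SP2509. The muscle isoforms Pgam2 and Eno3 had log2 fold changes of 0.08 ± 0.27 (SE) (adjusted p = 0.874) and 0.52 ± 0.30 (SE) (adjusted p = 0.269).

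All 4 genes of lactate handling had positive fold changes, with a median of 0.66 on the log2 scale, and 2 rose. Ldha (chr7:46841475-46855627, + strand), the lactate dehydrogenase subunit that favours lactate formation, measured 2099, 4977, 3532 and 3441 in vehicle and 6808, 6517, 6381, 6931, 6959 and 8906 in SP2509 replicates 1 to 6. All SP2509 libraries stood above the highest vehicle library, and vehicle replicate 1 was the lowest of all. Means were 3512 ± 1176 (SD, n = 4) in vehicle and 7224 ± 1145 (SD, n = 4) in SP2509, the log2 fold change was 1.07 ± 0.21 (SE), and the adjusted p was 0.0149, 0.0751 with the pairs merged and 9.86e-05 to 0.0768 over all alternatives. The call stood when any single library was left out (0.00525 to 0.0431) but not when SP2509 replicates 4 and 5 were left out together (0.0543). With the muscle covariate the log2 fold change was 0.84 (adjusted p = 0.0102).

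Slc16a1 (chr3:104638668-104658462, + strand) encodes MCT1, a carrier that moves lactate and pyruvate with protons across the membrane. It measured 501, 645, 436 and 488 in vehicle and 608, 888 and 961 as the lowest, median and highest in SP2509. A single SP2509 library lay below the highest vehicle library. Means were 517 ± 89.4 (SD, n = 4) in vehicle and 855 ± 137 (SD, n = 4) in SP2509, the log2 fold change was 0.67 ± 0.15 (SE), and the adjusted p was 0.024, 0.0751 with the pairs merged and 0.00146 to 0.0758 over all alternatives. Single libraries whose absence ended the call were vehicle replicates 1 (0.0751), 3 (0.0668) and 4 (0.0565) and SP2509 replicates 1 (0.0516) and 3 (0.0526). Its log2 fold change was 0.67 with the muscle covariate and 0.67 with the keratinocyte covariate.

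Slc16a3, the exporter MCT4 of highly glycolytic cells, measured 145 ± 70.2 against 219 ± 77.3 with a log2 fold change of 0.65 ± 0.29 (SE) (adjusted p = 0.173). Ldhb, the subunit that favours pyruvate formation, measured 1124, 1719.9, 1824 and 1247 in vehicle and 1493, 1572, 2043, 1573, 1548 and 5951 in SP2509, with replicate 6 alone far above the rest. Its log2 fold change was 0.49 ± 0.35 (SE) (adjusted p = 0.386).

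At the entry of pyruvate into the mitochondrion nothing passed among 8 genes by limma or edgeR, and by limma 1 gene was higher and none lower at an unadjusted p under 0.05. DESeq2 on the 10 libraries gave that gene no p-value and called none of the others. It is Pdha1, the E1 alpha subunit of the complex that carries the regulatory phosphorylation sites. It measured 595, 820.0, 732 and 695 in vehicle and 1114, 1163, 1083, 959, 878 and 4472 in SP2509. All 6 SP2509 libraries were above all 4 vehicle libraries, and replicate 6 held far more reads than any other. The log2 fold change was 0.90 ± 0.37 (SE) with an adjusted p of 0.141, and without SP2509 replicate 6 it was 0.55 (adjusted p = 0.00829, range over all alternatives 0.00545 to 0.329). DESeq2 on the summed pairs called Pdha1 higher (adjusted p = 0.0302).

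The other core subunits had log2 fold changes of 0.14 ± 0.25 (SE) for Pdhb (E1 beta, adjusted p = 0.76) and 0.50 ± 0.28 (SE) for Dlat (E2, adjusted p = 0.273). Of the kinases that shut the complex, Pdk1, a HIF-1 target, had 0.13 ± 0.15 (SE) (adjusted p = 0.626). The widely expressed Pdk2 had 0.66 ± 0.34 (SE) (adjusted p = 0.23) and Pdk3 0.69 ± 0.37 (SE) (adjusted p = 0.244). Pdk4, the fasting-induced kinase of muscle, spread widely in both groups, at 1213, 1795, 236 and 363 in vehicle and 575, 616, 358, 640.4, 629 and 3252 in SP2509. Its log2 fold change was 0.17 ± 0.64 (SE) (adjusted p = 0.891). Pdp1, the phosphatase that reopens the complex, had -0.02 ± 0.31 (SE) (adjusted p = 0.971).

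Set apart, the 7 muscle isoforms (Slc2a4, Hk2, Pfkm, Pfkfb1, Pgam2, Eno3 and Pdk4) held no call by limma, edgeR or DESeq2, with none higher and 1 lower at an unadjusted p under 0.05 by limma. Their median log2 fold change was 0.08. The 30 tested general isoforms held all 8 calls and had a median of 0.39. With the muscle covariate the median of the muscle isoforms was -0.25, with 1 of them called lower (Pfkfb1), and that of the general isoforms 0.24. The difference between these groups was not tested. SP2509 replicate 6, with its high muscle sum, was the highest library for 6 of the 7 muscle isoforms and for 21 of all 37 genes. Among the 30 tested general isoforms it was the highest for 15, so these are not a set apart from muscle. Vehicle replicate 1, with the lowest muscle sum, was the lowest library for 19 of all 37 genes.

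**Figure D5:**
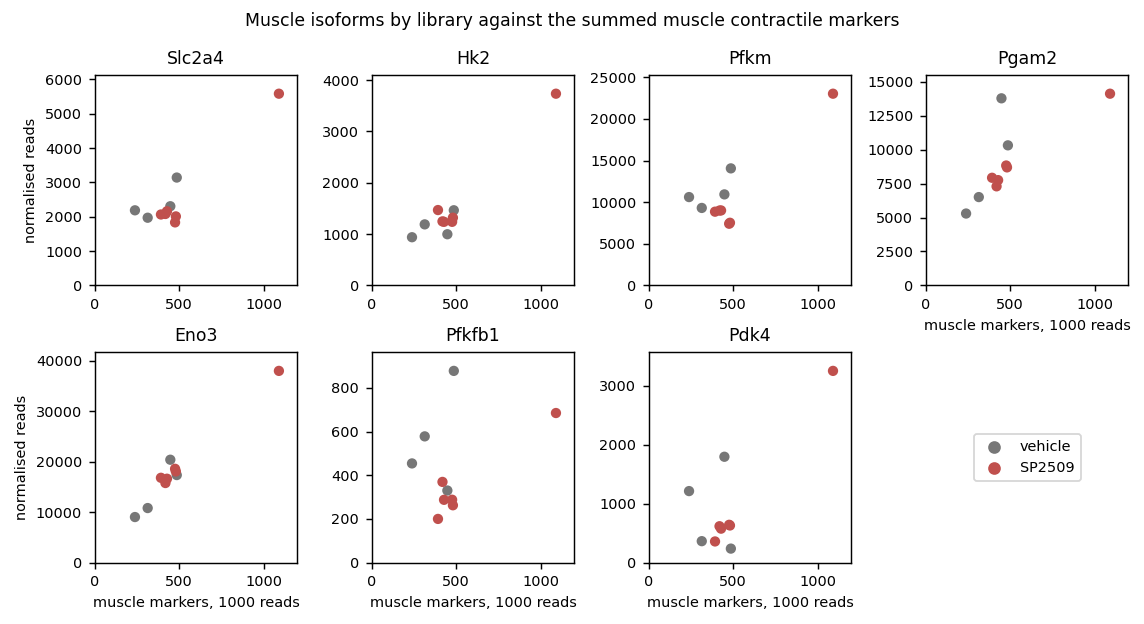
Normalised reads of the 7 muscle isoforms (vertical axes, starting at 0) against the summed skeletal muscle contractile markers (horizontal axes, in units of 1000 normalised reads), 1 point for each library, grey for vehicle and red for SP2509. The red point far to the right in every panel is SP2509 replicate 6, and it is the highest point for each of these genes but 1.

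Per kilobase of exon, the muscle form dominated most steps in both groups. Exon length here is that of all annotated exons of a gene merged, so the shares depend on the annotation. It was 3310 bases for Ldha and 1570 for Ldhb, and 5379 for Eno1 and 1739 for Eno3. The uncertain row of Pfkp enters the phosphofructokinase shares. Eno3 made 95.05% ± 1.62 (SD, n = 4) of enolase reads per kilobase in vehicle, and 92.3%, 93.6% and 97.9% were the lowest, median and highest shares in SP2509. Pgam2 made 98.2% ± 0.654 (SD, n = 4) of phosphoglycerate mutase in vehicle against 94.0%, 95.6% and 99.0%. Pfkm made 95.9% ± 0.742 (SD, n = 4) of phosphofructokinase against 93.4%, 93.6% and 98.3%. The muscle share was smaller for hexokinase, where Hk2 made 60.2% ± 10.5 (SD, n = 4) in vehicle and 58.0%, 63.7% and 88.6% in SP2509. For glucose transport, Slc2a4 made 55.5% ± 12.5 (SD, n = 4) and 44.6%, 52.4% and 84.4%. Ldha made 52.3% ± 5.71 (SD, n = 4) of the lactate dehydrogenase reads per kilobase in vehicle, and 41.5%, 67.0% and 68.4% were its lowest, median and highest shares in SP2509. In SP2509 replicates 1 to 5 every Ldha share (59.7% to 68.4%) lay above the highest vehicle share, 57.9%, while every Pfkm and Pgam2 share lay below the lowest vehicle share, and replicate 6 went the opposite way. The groups therefore overlapped in all 6 shares when all libraries were counted, and SP2509 replicate 6 had the lowest share of Ldha and the highest share of each of the 5 muscle forms.

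Genes around the pathway were read from 6 lists with 131 genes in the table, of which 120 were tested. Here 8 were higher and 6 lower, beside the 4.95% and 4.15% of all genes, with a median log2 fold change of 0.11. With the muscle covariate 8 were higher and 7 lower, beside 7.95% and 5.17% of all genes. In 10 of the 120 the SP2509 libraries all lay above vehicle and in 7 below, where 6.54% and 5.11% of all genes did. Minpp1 and Mlxipl kept their call when any single library was left out, while the other 12 lost it at least once, at adjusted p values of up to 0.138 (Fbp2). The 26 tested other genes of glycolysis and pyruvate entry held 1 call, Minpp1, a phosphatase that also acts on 2,3-bisphosphoglycerate (log2 fold change 0.72 ± 0.13 (SE), adjusted p = 0.0136, higher). Of 4 gluconeogenic genes Fbp2, the muscle fructose bisphosphatase, rose (0.77 ± 0.22 (SE), adjusted p = 0.047). With the muscle covariate none of the 4 was called, and with the pairs merged their lowest adjusted p was 0.15. The 12 tested pentose phosphate genes held no call by limma or edgeR, with 1 higher and 1 lower at an unadjusted p under 0.05. DESeq2 called 1 higher and 1 lower, and limma with the muscle covariate called 2 higher.

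Of 22 glycogen genes, 2 fell, and both encode catalytic subunits of phosphorylase kinase, which starts glycogen breakdown. With the muscle covariate 1 of the 22 was called lower and none higher. Phkg1, the muscle form, measured 4372, 3715, 5572 and 3936 in vehicle and 1575, 1747 and 3613 as the lowest, median and highest in SP2509. No SP2509 library reached the vehicle range, although SP2509 replicate 6 held the most muscle marker reads. The log2 fold change was -1.15 ± 0.22 (SE), and the adjusted p was 0.0149, 0.0801 with the pairs merged and 0.000283 to 0.0975 over all alternatives. The liver and testis form Phkg2 had a log2 fold change of -0.40 ± 0.11 (SE) (adjusted p = 0.0467, or 0.127 after merging the pairs).

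The 28 genes of the HIF pathway and hypoxia response were split, with 3 higher and 1 lower. Ddit4 (log2 fold change 0.73 ± 0.17 (SE), adjusted p = 0.024), an inhibitor of mTORC1, Mxi1 (0.61 ± 0.14 (SE), 0.0218), an antagonist of MYC, and Bnip3l (0.42 ± 0.11 (SE), 0.0414), a receptor for mitophagy, rose. Vegfa, the angiogenic growth factor and a classical HIF target, fell, from 13556, 12246, 13094 and 9857 in vehicle to 3808, 4259.7 and 9559.9 as the lowest, median and highest in SP2509. Its log2 fold change was -1.30 ± 0.25 (SE) (adjusted p = 0.0137). Hif1a itself had a log2 fold change of 1.12 ± 0.34 (SE) and did not pass (adjusted p = 0.0574), although every SP2509 library lay above every vehicle library.

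Among 28 other regulators of glycolysis 3 rose and 3 fell. Mlxipl encodes ChREBP, the glucose-sensing transcription factor that drives glycolytic and lipogenic genes. It measured 2390.1, 3033, 2756 and 2433 in vehicle and 1055, 1156 and 1980.2 as the lowest, median and highest in SP2509, with no overlap. The log2 fold change was -1.08 ± 0.17 (SE), and the adjusted p was 0.0118, 0.0718 with the pairs merged and 5.05e-06 to 0.0723 over all alternatives. Arrdc4, a known ChREBP target that restrains glucose uptake, fell as well (-0.55 ± 0.12 (SE), adjusted p = 0.021), and so did Prkag3, a muscle subunit of the energy sensor AMPK (-0.73 ± 0.19 (SE), adjusted p = 0.0359). Higher were Akt1 (0.47 ± 0.10 (SE), adjusted p = 0.0175) and Irs2 (0.81 ± 0.18 (SE), adjusted p = 0.022), which act in insulin signalling, and the nuclear receptor Nr4a3 (1.73 ± 0.45 (SE), adjusted p = 0.0351).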

How the data were processed

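Poly-A RNA was sequenced in 10 mouse tongue libraries (4 vehicle, 6 SP2509). HISAT2, featureCounts and mm10 are named in the submitters' processing notes, and the annotation release and strand setting were not named there. The deposited table holds signal values made by the authors: read counts divided by 1 size factor for each library, as read from the values, all of which were within 0.01 of whole reads. The 27113 IDs with a symbol, coordinates and exon lengths come from GENCODE M21 on GRCm38. The test was limma 3.58.1 (R 4.3.3; trend, robust) on log2(value + 1), which understates fold changes of low genes, over 17088 genes with at least 10 in at least 4 libraries. Whole reads were also tested with edgeR 4.0.16 and DESeq2 1.42.0. Other alternatives changed the pseudocount, filter, scaling, trend, library weights, covariates, replicate block, exon length correction, merged pairs or libraries left out. Near copies were found with BLAST 2.17.0. All listed members are named, as are called related genes, Hif1a and 1 neighbouring locus. The genes, lists and tests were chosen with earlier results of these data known, and the muscle extremes, summed pairs, keratinocyte covariate and length correction were added after seeing the data. The fit was tested on simulated data. Figures were drawn with matplotlib 3.10.9.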

Additional observations from a re-analysis of the deposited data

Results flagged for a closer look

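In 20 of the 76 sets of values checked (38 genes in each of 2 groups) 1 library stood far from the rest of its group, and in all 20 it was SP2509 replicate 6, on the high side. Chance alone flags about 1 set in 20, but the genes of 1 library are not independent of each other. In normalised reads, its values from glucose transport to upper glycolysis and the fructose 2,6-bisphosphate enzymes were Slc2a4 5583, Hk2 3737, Gpi1 11731, Pfkm 23029, Aldoa 86158, Tpi1 10343 and Pfkfb1 685. In lower glycolysis and lactate handling they were Pgk1 3629.9, Pgam2 14132, Eno3 37976, Pkm 19309, Ldha 8906 and Ldhb 5951, and around pyruvate dehydrogenase Pdha1 4472, Pdhb 4369.7, Dlat 2511, Pdk1 671, Pdk2 4538, Pdk4 3252 and Pdp1 899. The reverse held for 8 other tested genes, Slc2a1, Hk1, Pfkl, Pfkp, Aldoc, Pgam1, Eno1 and Pdk3, for which SP2509 replicate 6 had the lowest value of the 6 SP2509 libraries. Its sum of muscle contractile markers was the highest and its sum of keratinocyte markers the lowest of all 10 libraries. What part either played in these values was not tested.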

How the results depend on the processing

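The 8 called members kept their direction in all 30 alternatives, and 177 of their 240 values also kept the call. Without alteration 6 members, 8 related genes and 846 of all genes were higher and 2, 6 and 709 lower. With the pairs merged (limma) and with them summed (edgeR) no member, related gene or other gene was called (0 in each count). At an unadjusted p under 0.05 the merged limma fit had 8 members higher and 3 lower, where 1980 and 1652 of all genes were. By the same measure the summed edgeR fit had 11 members higher and 3 lower, where 2420 and 1440 of all 17088 genes were. DESeq2 on the summed pairs called 7 members higher and 2 lower, beside 862 and 814 of all genes. Counts moved by over 1.5 times under these alternatives, and the cause was not tested. Omitting the filter gave 553 of all genes higher. Scaling to reads outside mitochondrial genes gave 5 related genes higher, 10 related genes lower, 297 of all genes higher and 1442 of all genes lower. Limma without trend gave 1 member lower, 5 related genes higher and 490 of all genes higher, and the calls of Tpi1, Pfkfb2 and Pgam1 were lost. Library weights gave 6 members lower, 16 related genes higher, 12 related genes lower, 2381 of all genes higher and 1778 of all genes lower. EdgeR gave 1 member lower. DESeq2 gave 16 related genes higher, 10 related genes lower, 1618 of all genes higher and 1388 of all genes lower. DESeq2 on summed pairs gave 13 related genes higher. Leaving out SP2509 replicates 4 and 5 gave 2 members higher, 0 members lower, 2 related genes higher, 1 related gene lower, 219 of all genes higher and 156 of all genes lower. Leaving out vehicle replicate 1 and SP2509 replicate 6 gave 4 members lower and 1477 of all genes higher. The muscle covariate gave 4 members lower and 1359 of all genes higher. The keratinocyte covariate gave 17 members higher, 1 member lower, 35 related genes higher, 10 related genes lower, 1711 of all genes higher and 1178 of all genes lower. With 1 library left out at a time there were 2 to 9 members higher, 1 to 5 members lower, 1 to 15 related genes higher, 1 to 13 related genes lower, 171 to 1971 of all genes higher and 107 to 1488 of all genes lower, the fewest without vehicle replicate 1 and the most without SP2509 replicate 6 among all genes. Same-numbered vehicle and SP2509 libraries gave correlations of 0.13, 0.032, -0.20 and 0.13 in their deviations, and other-numbered ones -0.21 to 0.19. These values show no pairing by number, but they cannot exclude it, since differences in tissue content also enter them. A replicate block gave 9 members higher and 2 lower, beside 1125 and 769 of all genes. Scaling to reads outside mitochondrial genes moved the median of all genes to -0.13 and ended the calls of Pgam1 and Eno1. It left 4 members higher and 3 lower. Signs turned for 11 members, none of them called, whose log2 fold changes then were as follows. Slc2a1 gave 0.45 (library weights), 0.21 (replicate block), 0.14 (without SP2509 replicates 4 and 5), 0.19 (both muscle extremes out), 0.30 (muscle covariate) and -0.32 to 0.11 with 1 library left out. Slc2a4 gave -0.082 (quantile normalization), -0.13 (scaled outside mitochondrial genes), -0.12 (library weights), -0.22 (replicate block), -0.26 (both muscle extremes out), -0.30 (muscle covariate), -0.020 (exon length correction) and -0.22 to 0.16 with 1 library left out. Hk1 gave 0.0070 (TMM rescaling), 0.24 (library weights), 0.010 (edgeR), 0.17 (replicate block), 0.054 (without SP2509 replicates 4 and 5), 0.14 (both muscle extremes out), 0.22 (muscle covariate), 0.026 (exon length correction) and -0.20 to 0.11 with 1 library left out. Pfkm gave 0.13 (pairs summed, edgeR), 0.097 (pairs summed, DESeq2), 0.030 (without SP2509 replicates 4 and 5), 0.25 (keratinocyte covariate). Pfkp gave -0.077 (scaled outside mitochondrial genes), -0.15 (keratinocyte covariate). Gapdh gave 0.16 (edgeR), 0.10 (DESeq2), 0.34 (pairs merged), 0.51 (pairs summed, edgeR), 0.45 (pairs summed, DESeq2), 0.77 (without SP2509 replicates 4 and 5), 0.15 (muscle covariate) and -0.60 to 0.32 with 1 library left out. Pgam2 gave -0.14 (quantile normalization), -0.067 (scaled outside mitochondrial genes), -0.076 (replicate block), -0.27 (both muscle extremes out), -0.25 (muscle covariate) and -0.14 to 0.32 with 1 library left out. Pdhb gave -0.014 (scaled outside mitochondrial genes), -0.048 (library weights), -0.068 (replicate block), -0.15 (both muscle extremes out), -0.17 (muscle covariate) and -0.086 to 0.20 with 1 library left out. Pdk1 gave -0.022 (scaled outside mitochondrial genes), -0.040 (library weights), -0.053 (both muscle extremes out), -0.053 (muscle covariate). Pdk4 gave -0.30 (replicate block), -0.16 (muscle covariate) and -0.32 to 0.66 with 1 library left out. Pdp1 gave 0.0012 (TMM rescaling), 0.095 (edgeR), 0.054 (DESeq2), 0.13 (pairs merged), 0.26 (pairs summed, edgeR), 0.22 (pairs summed, DESeq2), 0.27 (without SP2509 replicates 4 and 5), 0.33 (keratinocyte covariate) and -0.26 to 0.17 with 1 library left out.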
